A study of Mus musculus with 48 samples.

Results

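The genes described here are 32 members of the cholesterol and fatty acid synthesis programme, most of them known targets of the SREBP transcription factors, in RAW264.7 cells, a mouse macrophage line. They were found by gene symbol in a table of 49568 genes, and 32 of 32 were present. By role, 7 encode enzymes from acetyl-CoA to farnesyl diphosphate (the mevalonate arm), 11 enzymes from squalene to cholesterol (the squalene and sterol arm), 6 regulators of SREBP with 1 sterol carrier among them, and 8 enzymes of fatty acid synthesis and desaturation. Cells were exposed to PBS (the control), to 100 µg/ml of a synthetic peptide copied from the same stretch of the HLA-DR β chain, to 5 ng/ml IFN-γ, or to a peptide and IFN-γ together, and poly(A) RNA was sequenced after 72 h. The peptides are LE, from an allele tied to systemic lupus erythematosus, SE, from an allele tied to rheumatoid arthritis, and PE, from an allele tied to protection. Each of the 8 groups (PBS, LE, SE, PE, IFN-γ, LE + IFN-γ, SE + IFN-γ and PE + IFN-γ) has 3 libraries here, which carry a letter as their label. All groups are the same transformed cell line. The study describes 6 biological replicates of these cells, from fewer independent experiments than replicates, without saying which library belongs to which experiment. The 3 libraries of a group may therefore not be 3 independent experiments.

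SREBPs are made as precursors that sit in the membrane of the endoplasmic reticulum, bound to Scap. When sterols are scarce, Scap escorts them to the Golgi, where they are cut and released to the nucleus, and when sterols are plentiful Insig proteins hold the complex back. SREBP-2 mainly drives cholesterol synthesis and uptake and SREBP-1c mainly fatty acid synthesis, and IFN-γ and other immune signals are known to alter sterol synthesis in macrophages.

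Many members had lower RNA levels with IFN-γ than with PBS, and lower still when LE or SE was given together with IFN-γ. Called means here an adjusted p under 0.05 and a fold change over 1.5, by edgeR's quasi-likelihood test with Benjamini-Hochberg adjustment over all genes tested. IFN-γ against PBS lowered 11 of 32 members, where 8.28% of all genes tested were called lower. Against IFN-γ alone, LE added to IFN-γ lowered 13 members, SE lowered 10, and PE lowered 0. Of all genes, 5.93%, 2.38% and 0.181% were called lower in the same order, so hardly any gene was called with PE. The sets called for IFN-γ and for LE overlap in part, with Sqle, Cyp51, Stard4, Acaca, Fasn and Elovl6 in both. No member was called higher in any of the 16 comparisons, where 0% to 19.1% of all genes were. None of the peptides alone changed a member past both limits, where at most 2.48% of all genes were called lower and 0.676% higher. Of the 32 members, 28 had their lowest group mean in a group with IFN-γ, 19 of them in LE + IFN-γ and 7 in SE + IFN-γ, and 27 had their highest in a group without it. The same counts over all genes are not given here, so whether this is particular to the members cannot be told.

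**Figure D1:**
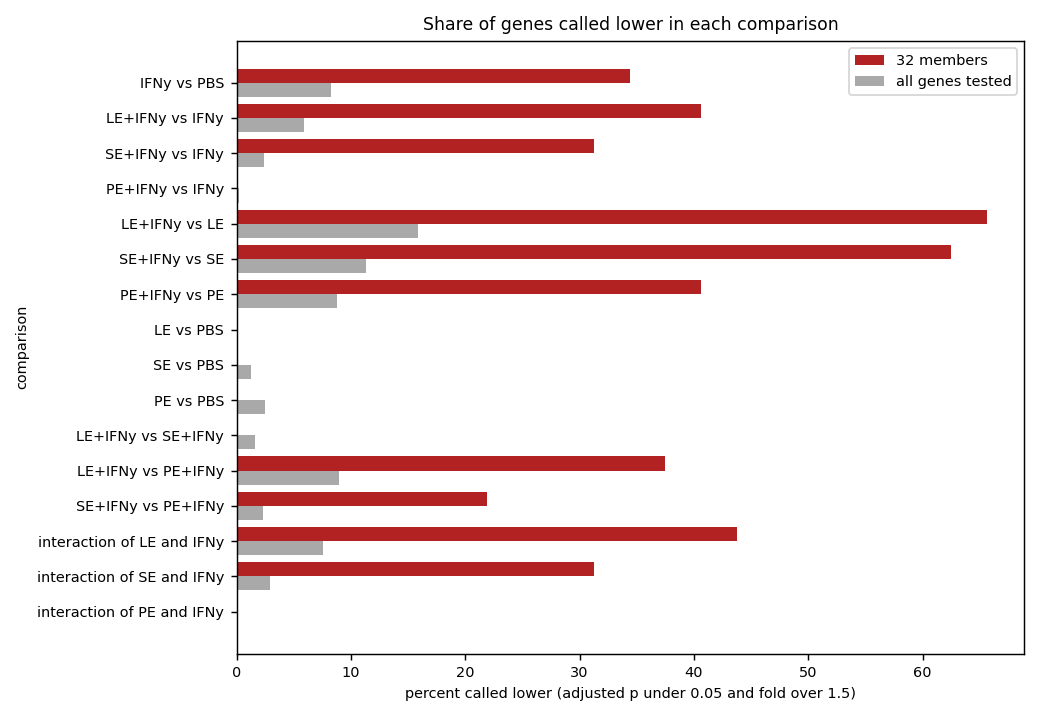
Percent of genes called lower (x axis) in each of the 16 comparisons (y axis), for the 32 members and for all genes tested. The members' bar is longer than that of all genes wherever any member was called lower, with 13 of 32 members against 5.93% of all genes for LE + IFN-γ against IFN-γ.

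The summed level of the 18 mevalonate, squalene and sterol enzymes shows the size of the change in each library. In CPM, read counts divided by all counts of the library and given per megacount, the PBS libraries summed to 874 to 916 and the IFN-γ libraries to 669 to 703. With LE + IFN-γ the sum was 443 to 455, with SE + IFN-γ 477 to 509 and with PE + IFN-γ 628 to 648. Each of these 5 ranges lies apart from the other 4. The peptides alone gave 877 to 891 for LE, 841 to 879 for SE and 828 to 841 for PE, where LE and SE overlapped with PBS and PE lay below it. These sums divide by all counts only, while the fold changes given below also use size factors between libraries (TMM). Part of a small difference in sums can thus come from the scaling. By those fold changes no member was called with PE alone against PBS, at a median of -0.06 on the log2 scale.

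The summed level of the 8 genes of the fatty acid arm followed a like order, from 1683 to 1757 CPM with PBS to 1144 to 1257 with IFN-γ. Fasn and Scd2 make up most of this sum, with means of 526 and 531 CPM in a mean sum of 1725 with PBS. When LE was added to IFN-γ, 7 of the 8 genes had log2 fold changes below 0, and Fads2 did not (means of 36.2 and 38.7 CPM). The sum was 661 to 731 CPM with LE + IFN-γ and 671 to 707 with SE + IFN-γ, which overlapped, and 1020 to 1065 with PE + IFN-γ. In these bulk libraries, fewer cells that make a transcript and less of it per cell cannot be told apart.

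**Figure D2:**
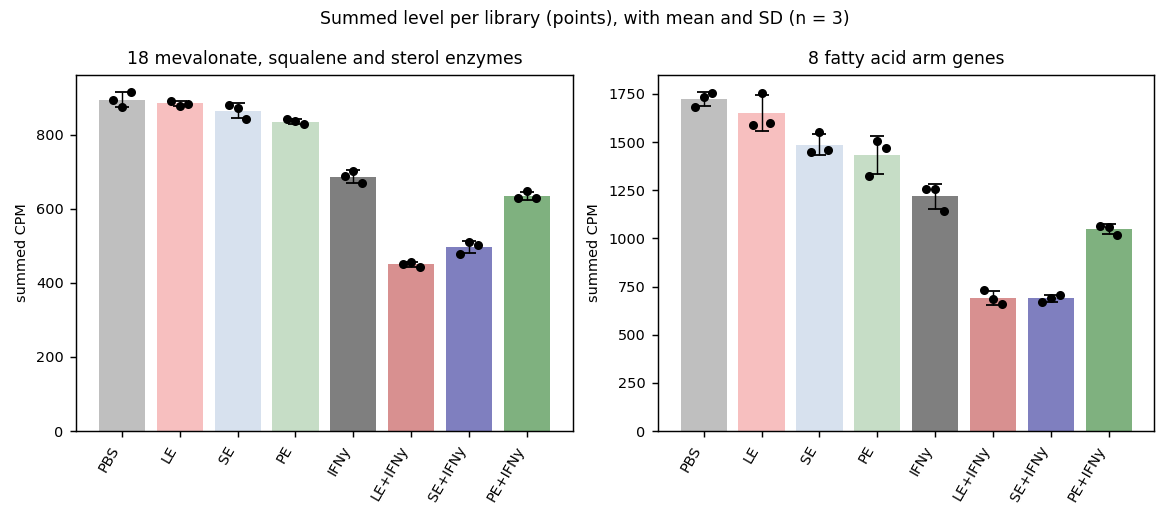
Summed CPM (y axis) of the 18 mevalonate, squalene and sterol enzymes and of the 8 fatty acid arm genes in each group (x axis), with points for libraries, bars for means and error bars for the SD (n = 3). The LE + IFN-γ and SE + IFN-γ bars are the lowest in both panels, with means of 450 and 496 CPM for the sterol enzymes against 687 for IFN-γ alone.

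The RefSeq promoter windows (250 bases before to 50 after a transcript's start, build GRCm38.p6) covered 25 of the 32 members in 33 windows. Fads1, Fdft1, Fdps, Scd1, Scd2, Sqle and Stard4 had none. SREBPs are known to bind sterol regulatory elements, often with NF-Y at a CCAAT box and Sp1 at a GC box nearby. On both strands, the SRE-like letters TCACNCCAC were in 1 of 33 member windows against 1.24% of 32851 windows of all genes. CCAAT was in 63.6% of the member windows against 37.4% of all, and GGGCGG, the GC box, in 75.8% against 35.7%. The motifs can overlap other motifs, and a match is not a measured binding site. These 4 windows are shown because Hmgcs1 holds the SRE-like letters, Mvd and Fasn fell when LE was added to IFN-γ, and Insig1 did not. Capitals mark TCACNCCAC and CCAAT read on either strand, so that ATTGG is CCAAT on the other strand.
Hmgcs1: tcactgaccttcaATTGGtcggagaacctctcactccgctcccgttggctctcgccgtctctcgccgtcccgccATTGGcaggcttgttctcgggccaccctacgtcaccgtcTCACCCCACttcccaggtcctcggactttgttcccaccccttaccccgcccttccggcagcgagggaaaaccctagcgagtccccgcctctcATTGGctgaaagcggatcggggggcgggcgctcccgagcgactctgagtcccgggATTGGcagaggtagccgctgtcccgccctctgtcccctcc
Mvd: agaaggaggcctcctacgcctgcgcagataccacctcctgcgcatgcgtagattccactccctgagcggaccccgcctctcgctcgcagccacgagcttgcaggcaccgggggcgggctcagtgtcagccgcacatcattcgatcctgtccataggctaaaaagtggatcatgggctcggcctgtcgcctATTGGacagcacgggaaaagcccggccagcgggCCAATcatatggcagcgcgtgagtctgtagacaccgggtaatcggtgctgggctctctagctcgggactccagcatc
Fasn: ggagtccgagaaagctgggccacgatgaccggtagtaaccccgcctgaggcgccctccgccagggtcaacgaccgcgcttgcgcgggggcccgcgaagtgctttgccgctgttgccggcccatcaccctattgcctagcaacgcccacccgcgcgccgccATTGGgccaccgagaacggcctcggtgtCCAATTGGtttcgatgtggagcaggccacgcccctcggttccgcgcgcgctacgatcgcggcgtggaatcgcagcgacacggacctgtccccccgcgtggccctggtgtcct
Insig1: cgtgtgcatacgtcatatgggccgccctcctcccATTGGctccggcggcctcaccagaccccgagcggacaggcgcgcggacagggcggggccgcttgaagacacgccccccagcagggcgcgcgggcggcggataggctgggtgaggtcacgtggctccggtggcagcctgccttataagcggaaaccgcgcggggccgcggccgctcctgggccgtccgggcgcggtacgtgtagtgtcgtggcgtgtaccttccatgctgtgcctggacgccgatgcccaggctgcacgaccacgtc
They lie at chr13:119690101-119690400 on the plus strand (Hmgcs1), chr8:122443373-122443672 on the minus strand (Mvd), chr11:120824498-120824797 on the minus strand (Fasn) and chr5:28071162-28071461 on the plus strand (Insig1). In Hmgcs1 the SRE-like letters read TCACCCCAC and begin 137 bases before the start. Hmgcs1 holds 4 CCAAT matches, Fasn 3, Mvd 2 and Insig1 1.

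The libraries held 16.5 to 26.9 M counts (M for mega), and all 32 members passed the filter on low counts in every comparison. The mean of log2(CPM + 1) over 20 IFN-γ target genes was 5.89 to 6.58 in the 12 libraries labelled with IFN-γ and 2.46 to 2.69 in the 12 without, so these labels and the response went together. It was higher in LE + IFN-γ (6.39 to 6.58) than in IFN-γ alone (5.95 to 6.15), while SE + IFN-γ (6.06 to 6.22) overlapped with IFN-γ alone and PE + IFN-γ (5.89 to 5.92) lay below it, and the part of this in the members' lower levels was not tested. A further 24 libraries labelled HLA have IFN-γ targets against the label in 12, so no result here rests on them. Macrophage markers, with Lyz2 the highest, summed to 9877 to 12381 CPM in the libraries without IFN-γ and 7082 to 9542 with it, of which IFN-γ alone had 7518 to 8192 and LE + IFN-γ 8738 to 9542, while fibroblast, epithelial and endothelial markers summed to at most 1.88, 0.667 and 2.39 CPM. Markers of T and B cells, nearly all of it Lck, with Ms4a1 at 0, summed to 10.1 to 19.6 CPM in the libraries without IFN-γ, 25.5 to 29.0 with IFN-γ, 16.6 to 20.2 with LE + IFN-γ, 22.3 to 27.2 with SE + IFN-γ and 25.0 to 27.9 with PE + IFN-γ. The part of either list in the members' values was not tested. Exons of 8 members overlap a gene on the other strand in GENCODE, Fdft1 with Ctsb and Cyp51 with Akap9 among them, and those of 4 overlap one on the same strand (Fdps with Gm43738, Scd2 with Mir5114, Srebf1 with Mir6922 and Tm7sf2 with Vps51), which strand cannot separate. Scd1 and Scd2 are close paralogs, so that these counts can hold or lack reads of a neighbour or copy. The kit kept strand by the study's methods, and the strand setting of the counting is not given in the sources used here.

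The first comparison asked what IFN-γ did on its own. Against PBS, 11 of 32 members were called lower and 0 higher, where 8.28% of the 12242 genes tested were called lower and 9.79% higher. The median log2 fold change was -0.40 over the members and -0.01 over all genes tested, and 25 of 32 members were below 0.

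In the mevalonate arm 3 of 7 members fell with IFN-γ. Acat2, the cytosolic thiolase that joins 2 acetyl-CoA units, had 19.7, 18.4 and 15.8 CPM with PBS and 7.17, 7.48 and 7.92 with IFN-γ. The libraries do not overlap, and Acat2 fell by 1.24 (SE 0.126, adjusted p 1.6e-05) on the log2 scale. Here and below, SE directly before a number in parentheses is the standard error of the log2 value, and SE elsewhere is the peptide. Hmgcs1, which makes HMG-CoA in the cytosol, had 65.9, 55.0 and 58.6 CPM with PBS and 39.8, 32.2 and 30.8 with IFN-γ, and fell by 0.79 (SE 0.103, adjusted p 0.000107) on the log2 scale. Idi1, the isomerase that makes dimethylallyl diphosphate, was a low transcript at 4.43, 2.76 and 3.05 against 2.01, 1.64 and 1.46 CPM, and fell by 0.98 (SE 0.251, adjusted p 0.00876) on the log2 scale. Every IFN-γ library of Hmgcs1 and Idi1 was below every PBS library. Mvd, the mevalonate diphosphate decarboxylase, had 121, 145 and 159 CPM with PBS and 91.6, 98.6 and 95.2 with IFN-γ and a log2 fold change of -0.56 (SE 0.0975, adjusted p 0.000825), short of the fold limit. Mvk and Pmvk, the kinases between these steps, had values of 0.07 and 0.32, and Fdps, the farnesyl diphosphate synthase, -0.26, none of them called.

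In the squalene and sterol arm 3 of 11 members fell. Sqle, the squalene monooxygenase and a rate-limiting step of the arm, had 97.4, 84.3 and 88.9 CPM with PBS and 55.1, 51.3 and 53.9 with IFN-γ, without overlap. It fell by 0.74 (SE 0.0748, adjusted p 1.55e-05) on the log2 scale. Nsdhl, a sterol dehydrogenase of C-4 demethylation, fell by 0.63 (SE 0.081, adjusted p 8.87e-05) from 40.0 ± 1.93 to 25.5 ± 0.531 CPM (mean ± SD, n = 3), and Cyp51, the lanosterol demethylase, fell by 0.60 (SE 0.0761, adjusted p 8.66e-05) from 59.3 ± 3.04 to 38.7 ± 1.12 CPM. The remaining members of this arm were not called, and ranged from -0.55 (Msmo1) to 0.16 (Ebp).

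Among the regulators, Insig1, which retains SREBP in the endoplasmic reticulum and is itself an SREBP target, had 56.7, 52.9 and 57.9 CPM with PBS and 36.4, 36.2 and 33.1 with IFN-γ. It fell by 0.65 (SE 0.0792, adjusted p 6.55e-05) on the log2 scale. Stard4, a carrier of sterols between membranes, fell by 0.66 (SE 0.0928, adjusted p 0.000189) from 33.4 ± 2.54 to 20.9 ± 1.32 CPM (mean ± SD, n = 3). Without replicate 3, Insig1 and Stard4 stayed below 0 at -0.58 each and missed the fold limit. Srebf2, the gene of SREBP-2, had 199, 211 and 213 CPM with PBS and 146, 137 and 136 with IFN-γ, and its log2 fold change of -0.55 (SE 0.0672, adjusted p 6.25e-05) was under the fold limit although the libraries do not overlap. Srebf1, the gene of SREBP-1, had 98.0, 117 and 115 and 104, 96.1 and 100.4 CPM, which overlap, and a log2 fold change of -0.12 (SE 0.0837, adjusted p 0.28). Insig2 and Scap had values of -0.02 and 0.13.

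In the fatty acid arm 3 of 8 members fell. Fasn, the fatty acid synthase, had 591, 508 and 478 CPM with PBS and 297, 298 and 260.3 with IFN-γ, and fell by 0.86 (SE 0.0866, adjusted p 1.45e-05) on the log2 scale. Acaca, the acetyl-CoA carboxylase that commits carbon to this arm, fell by 0.62 (SE 0.0885, adjusted p 0.000213), and Elovl6, which lengthens palmitate, by 0.72 (SE 0.142, adjusted p 0.00192). These 3 enzymes act in sequence, and the desaturases that follow them had smaller values. Scd1, a stearoyl-CoA desaturase, had 45.6, 50.7 and 64.0 CPM with PBS and 52.2, 49.7 and 44.4 with IFN-γ and a log2 fold change of -0.11 (SE 0.119, adjusted p 0.477). Scd2, its paralog, had 418, 557 and 617 and 440.1, 429 and 389 CPM and a log2 fold change of -0.33 (SE 0.123, adjusted p 0.0541). The libraries of both genes overlap between the groups, and neither was called. Acly, Fads1 and Fads2 had values of -0.28, -0.38 and -0.57 and were not called. Without replicate 1, Cyp51, Acaca and Elovl6 missed the fold limit, and Mvd, Srebf2 and Fads2 passed it.

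**Figure D3:**
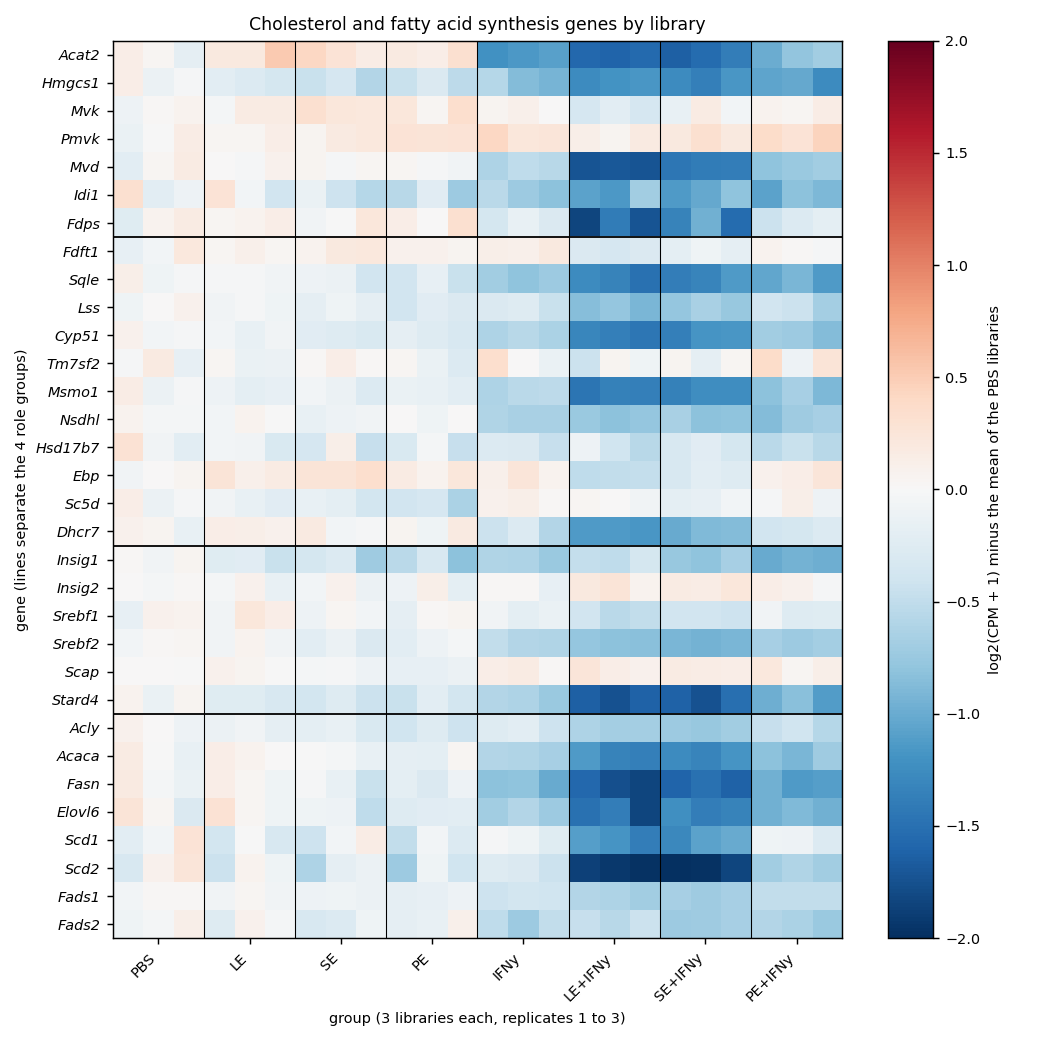
Level of each member (rows, with lines between the 4 role groups) in each of the 24 libraries (columns, 3 per group), as log2(CPM + 1) minus the mean of the PBS libraries. Blue marks lower levels, and it is deepest in LE + IFN-γ and SE + IFN-γ, where the group means of Scd2 were 137 and 132 CPM against 419 with IFN-γ alone.

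The next comparisons asked what each peptide added to IFN-γ, with IFN-γ alone as the control (Model A of the study). With LE + IFN-γ, 13 of 32 members were called lower and 0 higher, where 5.93% of 12720 genes were called lower and 9.58% higher. With SE + IFN-γ these were 10 and 0 members, against 2.38% and 5.01% of all genes. With PE + IFN-γ no member was called, where 0.181% of all genes were called lower and 0.448% higher. There 6 members had an adjusted p under 0.05 (5 lower and Acat2 higher at 0.40), and the share of all genes under this limit alone is not given here. The members' median log2 fold changes were -0.45 with LE, -0.39 with SE and -0.09 with PE, against -0.01, -0.01 and -0.00424 over all genes. The 3 comparisons share the IFN-γ libraries.

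Scd2, which makes monounsaturated fatty acids, had the largest fold change with either peptide. It had 440.1, 429 and 389 CPM with IFN-γ, 143, 137 and 132 with LE + IFN-γ, 118, 133 and 145 with SE + IFN-γ and 323, 346 and 324 with PE + IFN-γ. The LE and SE libraries lie far below the other groups. Scd2 fell by 1.60 (SE 0.0664, adjusted p 1.42e-11) on the log2 scale with LE, a 3.02-fold lower level, and by 1.64 (SE 0.0666, adjusted p 1.53e-11) with SE, while the log2 fold change with PE was -0.31 (SE 0.0643, adjusted p 0.00984). Scd1 had 24.2, 22.9 and 19.7 CPM with LE + IFN-γ, 20.9, 24.7 and 25.8 with SE + IFN-γ and 49.8, 49.4 and 43.7 with PE + IFN-γ. It fell by 1.11 (SE 0.0884, adjusted p 1.88e-08) with LE and by 1.01 (SE 0.0882, adjusted p 1.22e-07) with SE, and its value with PE was -0.01 (SE 0.0847, adjusted p 0.961). Neither gene was called for IFN-γ against PBS.

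The enzymes that IFN-γ had lowered in the fatty acid arm went down again. Fasn had 175, 154 and 146 CPM with LE + IFN-γ, 171, 185 and 171 with SE + IFN-γ and 268, 239 and 244 with PE + IFN-γ. It fell by 0.83 (SE 0.0669, adjusted p 2.06e-08) on the log2 scale with LE and by 0.67 (SE 0.0667, adjusted p 5.69e-07) with SE. With PE the value was -0.16 (SE 0.0662, adjusted p 0.118). Elovl6 fell by 0.98 (SE 0.118, adjusted p 2.5e-06) with LE and by 0.69 (SE 0.117, adjusted p 0.000188) with SE, and Acaca fell by 0.66 and 0.63. Acly, Fads1 and Fads2 were not called with any peptide.

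In the mevalonate arm, Fdps and Mvd fell with LE and with SE. Fdps, which makes the farnesyl diphosphate used for sterols and for prenylation, had 20.9, 24.5 and 22.0 CPM with IFN-γ, 6.89, 9.62 and 7.47 with LE + IFN-γ, 10.1, 13.5 and 8.66 with SE + IFN-γ and 19.9, 22.1 and 23.4 with PE + IFN-γ. It fell by 1.47 (SE 0.141, adjusted p 1.6e-07) on the log2 scale with LE and by 1.04 (SE 0.137, adjusted p 1.42e-05) with SE. Mvd had 42.0, 42.9 and 41.9 CPM with LE + IFN-γ, 51.3, 52.6 and 53.2 with SE + IFN-γ and 80.5, 84.1 and 86.9 with PE + IFN-γ. All LE libraries of Mvd lie below all SE libraries, and these below all PE libraries. Mvd fell by 1.16 (SE 0.0553, adjusted p 6.51e-11) with LE and by 0.83 (SE 0.0547, adjusted p 5.11e-09) with SE. Hmgcs1 had 24.5, 25.6 and 26.0 CPM with LE + IFN-γ, 24.5, 22.6 and 26.1 with SE + IFN-γ and 28.2, 29.0 and 24.5 with PE + IFN-γ. Its log2 fold changes of -0.42 (SE 0.0911, adjusted p 0.00091), -0.46 (SE 0.0916, adjusted p 0.000807) and -0.31 (SE 0.0912, adjusted p 0.0411) with LE, SE and PE were under the fold limit. Acat2 and Idi1, the members that IFN-γ lowered most in this arm, had -0.48 and -0.45 with LE and were not called.

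In the squalene and sterol arm 5 of 11 members fell with LE and 2 with SE. Msmo1, the C-4 methylsterol oxidase, fell by 0.83 (SE 0.0665, adjusted p 1.93e-08) on the log2 scale with LE and by 0.71 (SE 0.0663, adjusted p 2.94e-07) with SE, and Cyp51 by 0.78 (SE 0.0716, adjusted p 1e-07) and 0.63 (SE 0.0713, adjusted p 2.78e-06). Dhcr7, which makes cholesterol from its last precursor on 1 branch of the pathway, fell by 0.73 (SE 0.077, adjusted p 4.77e-07) with LE and had -0.48 (SE 0.0763, adjusted p 0.000101) with SE. Ebp, the sterol isomerase, fell by 0.63 (SE 0.0625, adjusted p 2.53e-07) with LE, from 72.5 ± 4.57 to 46.4 ± 0.351 CPM (mean ± SD, n = 3), and had -0.38 (SE 0.0621, adjusted p 0.00013) with SE. Sqle had 37.0, 35.1 and 31.4 CPM with LE + IFN-γ, 34.0, 35.6 and 40.3 with SE + IFN-γ and 43.3, 47.5 and 40.6 with PE + IFN-γ. It fell by 0.62 (SE 0.0768, adjusted p 3.53e-06) with LE, and had values of -0.52 (SE 0.0767, adjusted p 5.16e-05) with SE and -0.26 (SE 0.0761, adjusted p 0.0396) with PE. The calls of Sqle without replicate 3 and of Ebp without replicate 2 with LE, and of Cyp51 without replicate 1 with SE, were lost at log2 fold changes of -0.54, -0.58 and -0.58.

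Stard4 was the member of the regulator group that fell, by 1.08 (SE 0.0938, adjusted p 5.39e-08) on the log2 scale with LE and by 1.01 (SE 0.0938, adjusted p 2.57e-07) with SE, from 20.9 ± 1.32 CPM to 9.82 ± 0.497 and 10.2 ± 0.881 (mean ± SD, n = 3). Insig1 differed from the enzymes. It had 39.8, 39.1 and 43.4 CPM with LE + IFN-γ, 32.5, 31.5 and 34.9 with SE + IFN-γ and 27.2, 28.4 and 27.9 with PE + IFN-γ, so that the LE libraries lay above those of IFN-γ alone. Its log2 fold changes of 0.23 (SE 0.0681, adjusted p 0.0102), -0.07 (SE 0.069, adjusted p 0.497) and -0.31 (SE 0.0699, adjusted p 0.0131) with LE, SE and PE were under the fold limit. Srebf1 had 84.3, 75.5 and 77.4 CPM with LE + IFN-γ, 84.4, 83.7 and 82.5 with SE + IFN-γ and 105, 92.1 and 92.6 with PE + IFN-γ, and log2 fold changes of -0.33 (SE 0.0594, adjusted p 0.000175), -0.24 (SE 0.0593, adjusted p 0.00484) and -0.03 (SE 0.0591, adjusted p 0.795). Srebf2 had 122, 117 and 116, 109, 107 and 109 and 131, 126 and 129 CPM in the same order of groups, and log2 fold changes of -0.23 (SE 0.0472, adjusted p 0.000657), -0.34 (SE 0.0474, adjusted p 2.76e-05) and -0.09 (SE 0.0472, adjusted p 0.206). Both genes had their lowest libraries in LE + IFN-γ or SE + IFN-γ, with changes smaller than those of Scd2, Fdps or Mvd. Insig2 and Scap had 0.23 and 0.06 with LE.

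**Figure D4:**
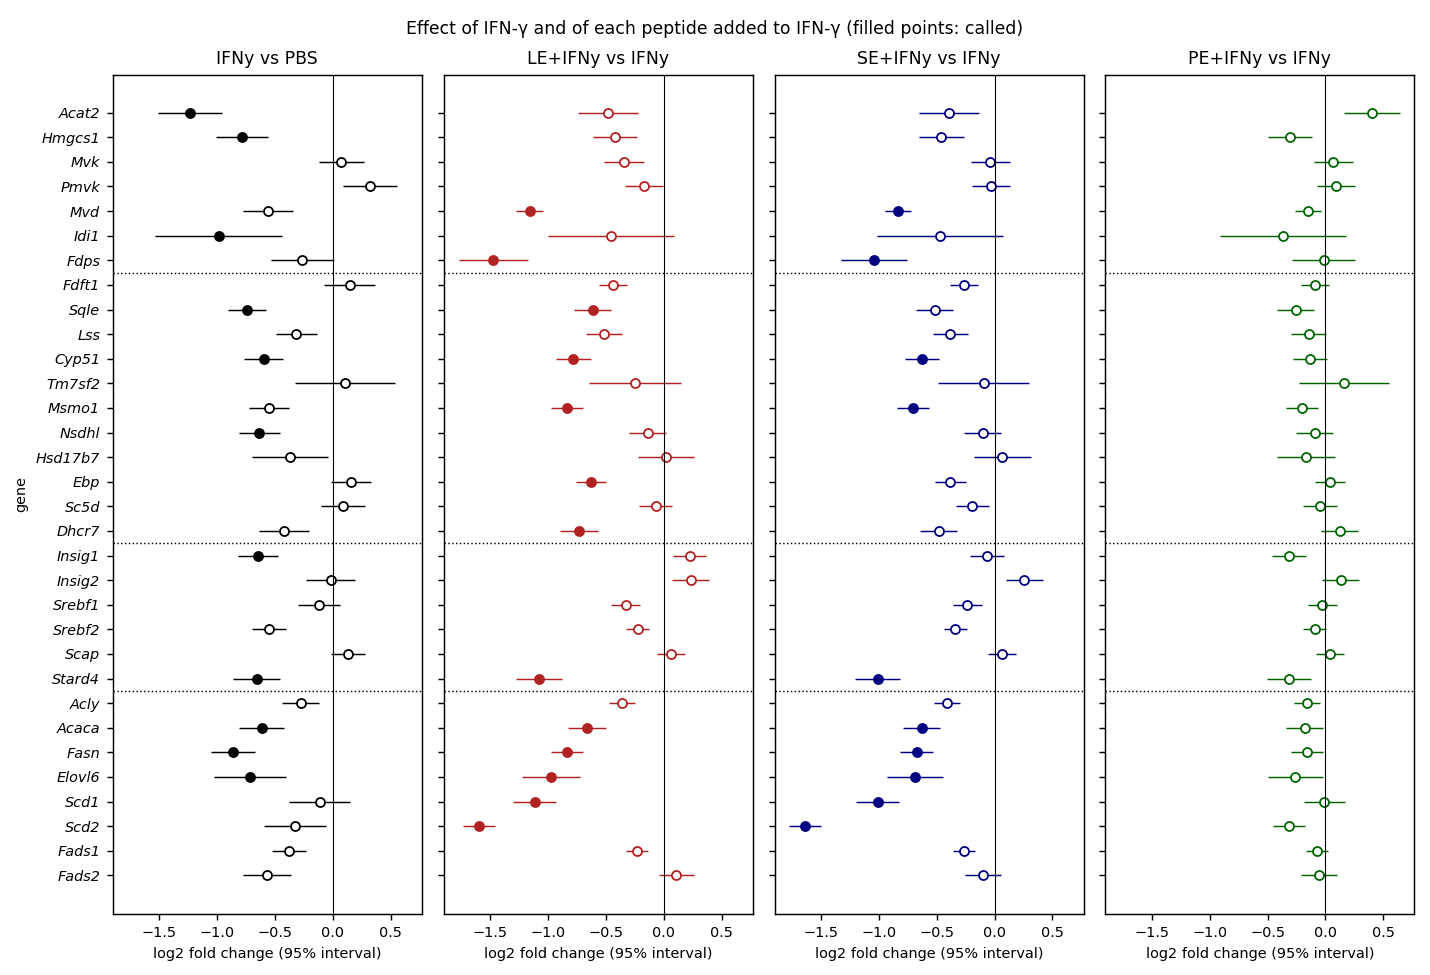
Log2 fold change (x axis, with 95% intervals) of each member (y axis) for IFN-γ against PBS and for each peptide plus IFN-γ against IFN-γ alone, with filled points for called members. Acat2 is the lowest in the first panel at -1.24, Scd2 in the panels of LE and SE at -1.60 and -1.64, and no point is filled in the panel of PE.

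The peptides were compared directly in the presence of IFN-γ, at the same dose and time. Between LE and SE 0 members were called, where 1.62% of all genes were called lower with LE and 3.31% higher. The members' median was -0.09, and 8 members had an adjusted p under 0.05 (6 lower and 2 higher with LE). The share of all genes under this limit alone is not given here. The log2 difference was 0.05 (95% interval -0.09 to 0.18) for Scd2, -0.10 (95% interval -0.30 to 0.09) for Scd1, -0.16 (95% interval -0.30 to -0.02) for Fasn, 0.04 (95% interval -0.15 to 0.24) for Hmgcs1, -0.10 (95% interval -0.26 to 0.07) for Sqle, -0.09 (95% interval -0.22 to 0.03) for Srebf1 and 0.11 (95% interval 0.01 to 0.21) for Srebf2. It was -0.32 (95% interval -0.44 to -0.20) for Mvd, with an adjusted p of 0.000416, and 0.29 (95% interval 0.15 to 0.44) for Insig1, with an adjusted p of 0.00334, so that these intervals do not hold 0.

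Against PE + IFN-γ, 12 members were lower with LE + IFN-γ and 7 with SE + IFN-γ, and 0 were higher. Of all genes, 8.94% were called lower and 12.7% higher for LE against PE, and 2.34% and 5.25% for SE against PE. Fdps was lower with LE by 1.46 (SE 0.141, adjusted p 1.34e-07) on the log2 scale and with SE by 1.03 (SE 0.137, adjusted p 1.79e-05), Scd2 by 1.28 (SE 0.0661, adjusted p 1.4e-10) and 1.33 (SE 0.0662, adjusted p 2.69e-10), and Scd1 by 1.10 (SE 0.0885, adjusted p 1.57e-08) and 1.00 (SE 0.0883, adjusted p 1.77e-07). Mvd was lower by 1.00 (SE 0.0555, adjusted p 2.43e-10) with LE and by 0.68 (SE 0.0548, adjusted p 6.25e-08) with SE. Acat2, with 5.33, 5.24 and 5.46 CPM in LE + IFN-γ, 5.12, 5.47 and 6.23 in SE + IFN-γ and 8.54, 9.97 and 10.7 in PE + IFN-γ, was lower by 0.88 (SE 0.12, adjusted p 6.25e-06) and 0.80 (SE 0.12, adjusted p 6e-05). Stard4 and Dhcr7 also fell in both, by 0.76 and 0.85 with LE and by 0.70 and 0.60 with SE. Stard4 lost its call for SE without replicate 2 (-0.56). Cyp51, Msmo1, Ebp, Fasn and Elovl6 were called for LE, by 0.65, 0.63, 0.67, 0.67 and 0.72. Fasn had -0.51 (SE 0.0667, adjusted p 1.42e-05) for SE against PE. Insig1 was the member with the largest positive value, 0.54 (SE 0.0692, adjusted p 3.35e-06) for LE and 0.25 (SE 0.07, adjusted p 0.0112) for SE, under the fold limit in both. Sqle had -0.36 and -0.26, Hmgcs1 -0.11 and -0.16, Srebf1 -0.30 and -0.21, and Srebf2 -0.13 and -0.25, none of them called.

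Model B of the study compared each peptide plus IFN-γ with the same peptide alone. In LE-exposed cells 21 of 32 members were lower with IFN-γ, against 15.9% of all genes, in SE-exposed cells 20 against 11.3%, and in PE-exposed cells 13 against 8.82%. No member was higher, where 19.1%, 15.1% and 12.1% of all genes were. The members' medians were -0.83, -0.74 and -0.47, with medians of at most 0.01 in size over all genes.

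Acat2 had the largest change in LE-exposed cells. It had 20.5, 20.7 and 26.1 CPM with LE and 5.33, 5.24 and 5.46 with LE + IFN-γ, a fall by 2.09 (SE 0.127, adjusted p 1.17e-11) on the log2 scale or 4.27-fold. In SE-exposed cells it fell by 2.01 (SE 0.127, adjusted p 3.15e-11) and in PE-exposed cells by 1.15 (SE 0.12, adjusted p 9.4e-08). Of the mevalonate arm, Fdps fell by 1.86 with LE and 1.44 with SE, Mvd had -1.79, -1.497 and -0.78 with LE, SE and PE, Idi1 fell by 1.44, 1.04 and 0.76, and Hmgcs1 by 0.98, 0.87 and 0.76. Idi1 had at most 4.43 CPM in any library, and it lost its call without replicate 1 in SE-exposed cells (-0.70, adjusted p 0.118) and in PE-exposed cells (-0.69, adjusted p 0.129), and in the latter also without replicate 2 (-0.65, adjusted p 0.19).

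In the squalene and sterol arm 7 of 11 members fell in LE-exposed and in SE-exposed cells and 3 in PE-exposed cells. Sqle had 88.7, 88.9 and 85.5 CPM with LE, 83.7, 82.7 and 68.7 with SE and 68.5, 80.4 and 65.8 with PE, and fell by 1.37 (SE 0.0825, adjusted p 1.09e-11), 1.14 (SE 0.0825, adjusted p 2.91e-10) and 0.76 (SE 0.0819, adjusted p 1.4e-07) on the log2 scale when IFN-γ was added. Cyp51 fell by 1.34 with LE and 1.04 with SE, Dhcr7 by 1.32 and 1.02, and Msmo1 by 1.29, 1.20 and 0.69 with LE, SE and PE. Nsdhl fell by 0.83, 0.71 and 0.80 in the same order. Lss, the lanosterol synthase, was called in LE-exposed cells at -0.83 and in SE-exposed cells at -0.63. Ebp fell by 0.70 in LE-exposed and 0.60 in SE-exposed cells. The latter, just past the fold limit, lost its call with RLE size factors (-0.58), without the filter on low counts (-0.58), with DESeq2 (-0.58), without replicate 1 (-0.58) and without replicate 3 (-0.55).

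Srebf2 had 197, 219 and 197 CPM with LE, 178, 191 and 169 with SE and 178, 194 and 201 with PE, above all libraries with IFN-γ. It fell by 0.81 (SE 0.0586, adjusted p 1.69e-10), 0.77 (SE 0.0589, adjusted p 7.23e-10) and 0.62 (SE 0.0586, adjusted p 2.04e-08) on the log2 scale in LE-, SE- and PE-exposed cells. Srebf1 had 105, 128 and 121 CPM with LE, 102, 113 and 106 with SE and 96.8, 112 and 114 with PE, and fell in LE-exposed cells by 0.60 (SE 0.0787, adjusted p 1.02e-06), close to the fold limit. In SE-exposed and PE-exposed cells its values were -0.40 (SE 0.0787, adjusted p 0.000213) and -0.21 (SE 0.0785, adjusted p 0.0319). The call with LE was lost without replicate 2 (-0.49), without replicate 3 (-0.56) and without the filter on low counts (-0.58). Insig1 had 47.0, 47.5 and 40.6 CPM with LE, 43.7, 46.1 and 33.5 with SE and 38.1, 44.7 and 31.2 with PE, and was not called in any of the 3, at -0.17 (SE 0.103, adjusted p 0.157), -0.36 (SE 0.104, adjusted p 0.00632) and -0.50 (SE 0.106, adjusted p 0.00051). Stard4 fell by 1.51 (SE 0.0896, adjusted p 8.79e-12), 1.38 (SE 0.0899, adjusted p 5.31e-11) and 0.72 (SE 0.0867, adjusted p 6.87e-07).

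In the fatty acid arm, Elovl6, Scd2 and Fasn had the largest changes in LE-exposed cells. Fasn had 573, 538 and 491 CPM with LE, 514, 475 and 385 with SE and 457, 427 and 486 with PE, and fell by 1.78 (SE 0.0888, adjusted p 6.26e-13), 1.42 (SE 0.0881, adjusted p 2.44e-11) and 0.92 (SE 0.0869, adjusted p 2.09e-08) on the log2 scale. Elovl6 fell by 1.83, 1.24 and 0.80, and Acaca by 1.40, 1.26 and 0.77. Scd2 had 388, 549 and 495 CPM with LE, 342, 461 and 485 with SE and 318, 495 and 398 with PE. It fell by 1.82 (SE 0.143, adjusted p 5.94e-10) in LE-exposed and 1.74 (SE 0.143, adjusted p 1.89e-09) in SE-exposed cells, and had -0.34 (SE 0.138, adjusted p 0.0492) in PE-exposed cells. Scd1 had 40.7, 52.7 and 42.0 CPM with LE, 39.7, 51.0 and 58.4 with SE and 37.3, 50.8 and 43.4 with PE. Scd1 fell by 1.04 (SE 0.134, adjusted p 8.55e-07) and 1.10 (SE 0.134, adjusted p 5.52e-07) with LE and SE, and had 0.07 (SE 0.13, adjusted p 0.693) with PE. Fads1 was called with LE at -0.63 and with SE at -0.62, and Fads2, the delta-6 desaturase, fell by 0.64 (SE 0.0998, adjusted p 1.75e-05) with PE and had -0.45 and -0.53 with LE and SE. The call of Fads2 was lost without replicate 3 (-0.50), as was that of Srebf2 in PE-exposed cells (-0.58).

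**Figure D5:**
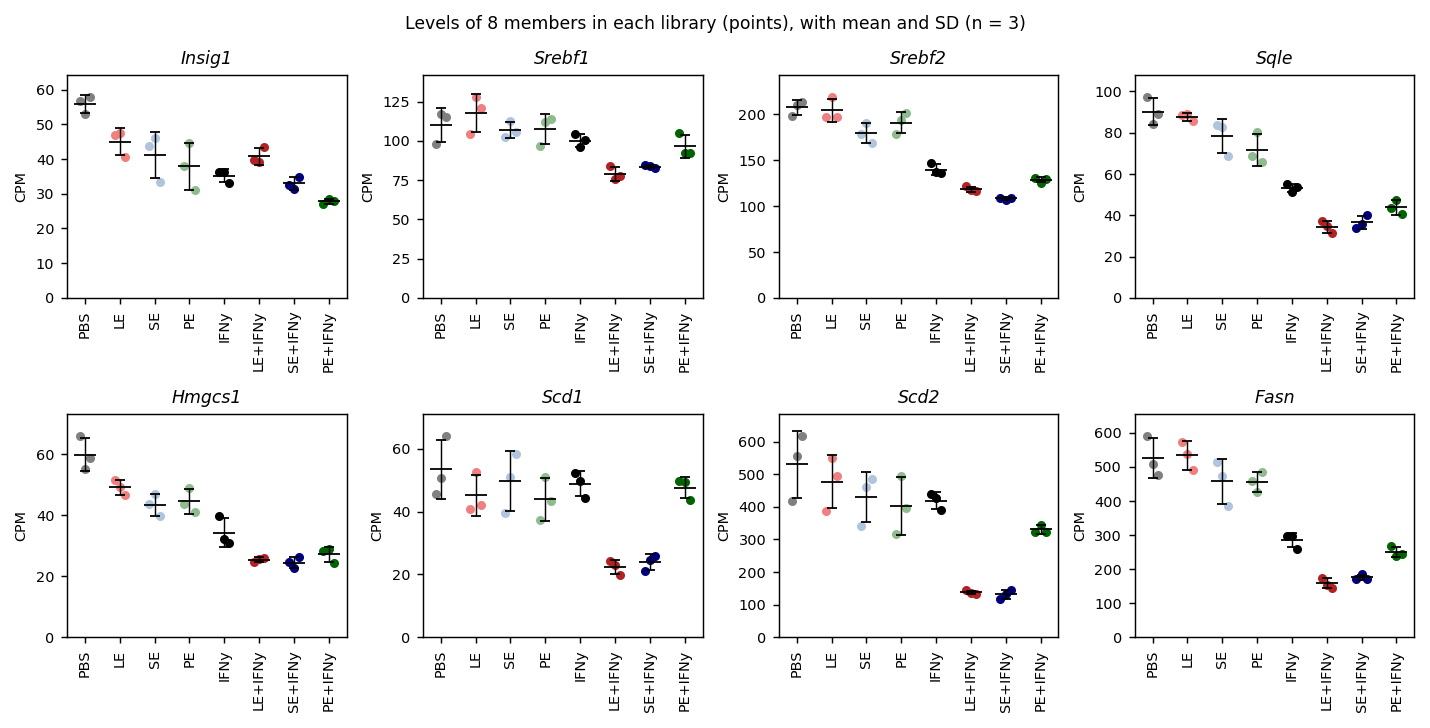
CPM (y axis, from 0) of Insig1, Srebf1, Srebf2, Sqle, Hmgcs1, Scd1, Scd2 and Fasn in each library (points) of the 8 groups (x axis), with the mean and SD (n = 3). The LE + IFN-γ and SE + IFN-γ points of Scd1 lie between 19.7 and 25.8 CPM and all others between 37.3 and 64.0, while Insig1 has its lowest mean, 27.8 CPM, in PE + IFN-γ.

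The peptides alone were compared with PBS to ask whether they act without IFN-γ. No member was called with LE (0.0242% of 12420 genes higher and 0% lower), with SE (0.676% higher and 1.25% lower) or with PE (0.652% higher and 2.48% lower). The members' medians were 0.01, -0.06 and -0.06, with medians of at most 0.01 in size over all genes. An adjusted p under 0.05 was found for 0 members with LE, 5 with SE and 9 with PE. The shares of all genes under this limit alone are not given here. Insig1 was lower in every LE, SE and PE library than in the PBS libraries, with log2 fold changes of -0.26 (SE 0.115, adjusted p 0.297), -0.37 (SE 0.116, adjusted p 0.0455) and -0.47 (SE 0.116, adjusted p 0.0158). Hmgcs1 likewise lay below PBS in every peptide library, at 51.5, 49.3 and 46.5 CPM with LE, 43.5, 46.9 and 39.6 with SE and 43.5, 48.9 and 41.0 with PE and log2 fold changes of -0.24 (SE 0.0808, adjusted p 0.227), -0.39 (SE 0.0812, adjusted p 0.0112) and -0.34 (SE 0.0812, adjusted p 0.0136). Both stayed under the fold limit, and Insig1 passed it with PE only without replicate 2. Sqle had 0.01 (SE 0.0806, adjusted p 0.973), -0.13 (SE 0.0808, adjusted p 0.282) and -0.25 (SE 0.081, adjusted p 0.0448) with LE, SE and PE. Srebf1 had 0.14, 0.03 and 0.05, and Srebf2 0.02, -0.14 and -0.03. Scd1, Scd2 and Fasn had intervals that hold 0 for each peptide, with values between -0.31 and 0.07.

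The interaction term asked whether the peptide and IFN-γ together gave another level than their separate effects added on the log2 scale, in a fit of all 8 groups. It was called for 14 of 32 members with LE, all lower, against 7.58% of 13096 genes lower and 11.3% higher, and for 10 with SE, all lower, against 2.89% lower and 5.08% higher. With PE no member and no gene was called (0% higher and 0% lower). The members' medians were -0.51, -0.34 and -0.03, against -0.02, -0.01 and -0.01 over all genes.

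Fdps had the largest interaction with LE, at -1.60 (SE 0.21, adjusted p 3.32e-06) and at -1.17 (SE 0.208, adjusted p 0.000315) with SE. Scd2 had -1.499 (SE 0.209, adjusted p 7.22e-06) and -1.41 (SE 0.209, adjusted p 4.56e-05), Mvd -1.23 (SE 0.107, adjusted p 1.69e-08) and -0.93 (SE 0.107, adjusted p 2.15e-06), and Scd1 -0.93 (SE 0.197, adjusted p 0.000676) and -0.98 (SE 0.196, adjusted p 0.000966). Acat2 had -0.86 and -0.77, Stard4 -0.85 and -0.72, Ebp -0.86 and -0.75, Msmo1 -0.74 and -0.64, Dhcr7 -0.90 and -0.60, and Acaca -0.78 and -0.64, called with both peptides. Elovl6, Fasn, Cyp51 and Sqle were called with LE, at -1.11, -0.91, -0.74 and -0.63, and with SE Fasn had -0.55 (SE 0.126, adjusted p 0.0032) and Sqle -0.39 (SE 0.112, adjusted p 0.0151). Calls were lost without replicate 3 for Sqle with LE (-0.54), without replicate 1 for Acat2 (-0.74, adjusted p 0.0544) and Dhcr7 (-0.52, adjusted p 0.0815) with SE, and without replicate 2 for Stard4 with SE (-0.56). The followed members that were not called had -0.19 (SE 0.123, adjusted p 0.234) (Hmgcs1), -0.48 (SE 0.118, adjusted p 0.0023) (Srebf1), -0.26 (SE 0.0818, adjusted p 0.0141) (Srebf2) and 0.48 (SE 0.135, adjusted p 0.00689) (Insig1) with LE, and -0.07, -0.27, -0.20 and 0.30 with SE. With PE the 8 followed members lay between -0.10 and 0.18.

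No call was made for 9 of the members in any comparison. Their group means ran from 22.9 to 33.9 CPM for Mvk, 20.5 to 26.5 for Pmvk, 43.4 to 60.5 for Fdft1 (the squalene synthase), 4.12 to 5.43 for Tm7sf2 (a sterol reductase), 8.12 to 12.2 for Hsd17b7 (a sterol ketoreductase) and 25.0 to 36.2 for Sc5d (the lathosterol desaturase). They ran from 19.3 to 22.9 CPM for Insig2, 65.8 to 81.5 for Scap and 141 to 234 for Acly, the ATP citrate lyase. Levels per kilobase used all annotated exons of a gene, which can be longer than the transcript expressed here, so the ranks between genes are rough. On this scale Scd2 was the most abundant member with PBS at 97.1 ± 18.7 RPKM (SD, n = 3), followed by Mvd at 76.3 ± 10.3. Idi1 was the least abundant at 0.974 ± 0.255. With LE + IFN-γ Scd2 was at 25.1 ± 1.08 RPKM, below Fads1 at 32.7 ± 1.34 and Acly at 27.9 ± 0.722.

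Further genes of sterol and fatty acid metabolism were read from a list of 21, of which 20 were tested, and Idi2 had 0 counts in the 24 libraries, which allows up to 0.182 CPM in the shallowest. IFN-γ against PBS lowered 1 of them past both limits and SE added to IFN-γ lowered 2, with 0 higher in either. Of all genes, 8.28% and 2.38% were called lower and 9.79% and 5.01% higher. With LE added to IFN-γ 0 were called, at log2 fold changes of -0.57 to 0.58, where 5.93% of all genes were called lower and 9.58% higher. With PE 0 were called, at -0.39 to 0.31, where 0.181% of all genes were called lower and 0.448% higher. Lpin1, a phosphatidate phosphatase, had 22.5, 21.4 and 22.3 CPM with PBS, 9.43, 10.1 and 8.3 with IFN-γ, 7.11, 6.61 and 7.55 with LE + IFN-γ, 6.55, 5.83 and 5.29 with SE + IFN-γ and 7.91, 6.93 and 6.6 with PE + IFN-γ. It fell by 1.23 (SE 0.11, adjusted p 6.21e-06) on the log2 scale with IFN-γ and by 0.63 (SE 0.12, adjusted p 0.000548) with SE. Hsd17b12, an enzyme of fatty acid elongation, fell by 0.60 (SE 0.0586, adjusted p 4.42e-07) with SE. With SE the call of Lpin1 was lost without replicate 2 (-0.56) and that of Hsd17b12 without replicate 1 (-0.57).

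In Model B, 5 genes of this list were lower and 1 higher in LE-exposed cells, 4 and 2 in SE-exposed cells, and 2 and 1 in PE-exposed cells. The shares of all genes in the same order were 15.9% and 19.1%, 11.3% and 15.1%, and 8.82% and 12.1%, so that with 20 genes tested some of these counts lie near or under the background. Lpin1 fell by 1.51, 1.57 and 1.18 on the log2 scale, and Aacs, which activates acetoacetate for lipid synthesis, by 1.21, 0.82 and 0.72. Tecr, the last enzyme of the fatty acid elongation cycle, fell by 0.71 in LE-exposed and 0.63 in SE-exposed cells, and Mbtps1, a protease that cuts SREBP, by 0.62 and 0.77. Erlin1, a protein of the endoplasmic reticulum membrane, was higher in all 3, at 0.60, 0.61 and 0.82 with LE, SE and PE. Against PE + IFN-γ, 3 genes were higher and 1 lower with LE, where 12.7% of all genes were called higher and 8.94% lower. With 20 genes tested these counts lie near the background. The called genes included Acss2, an acetyl-CoA synthetase, higher by 0.77 (SE 0.0999, adjusted p 3.62e-06), Mbtps2, a second protease that releases SREBP, higher by 0.70 (SE 0.114, adjusted p 4.73e-05), and Tecr, lower by 0.69 (SE 0.0629, adjusted p 6.32e-08). Lbr, which also acts as a sterol reductase, was higher with LE than with SE by 0.59 (SE 0.089, adjusted p 0.000128). Mbtps2 was lower with PE alone by 0.61 (SE 0.181, adjusted p 0.0313) and had an interaction with LE of 0.93 (SE 0.227, adjusted p 0.00234). The interactions of Aacs and Tmem97, a sterol-binding membrane protein, were -0.72 and -0.69 with LE, and those of Tmem97 and Hsd17b12 -0.66 and -0.65 with SE. Calls were lost without replicate 1 for Tecr in SE-exposed cells (-0.57), Lbr (0.52) and Mbtps2 with PE alone (-0.32), without replicate 2 for the interaction of Aacs (-0.52), and without replicate 3 for Erlin1 in LE-exposed cells (0.55), Mbtps2 with PE alone (-0.58) and Mbtps2 for LE against PE (0.57).

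Genes of oxysterols, efflux and storage showed both directions, with 10 of 12 tested. Ch25h, which makes 25-hydroxycholesterol, and Cyp7b1, which breaks it down, had 0 counts in all 24 libraries, which allows up to 0.182 CPM in the shallowest (counting error only). Abca1, which exports cholesterol and is a target of the sterol-sensing LXR receptors, had 18.5, 16.9 and 15.7 CPM with PBS, 11.1, 6.58 and 4.86 with IFN-γ, 17.5, 12.2 and 15.9 with LE + IFN-γ, 9.05, 7.62 and 8.07 with SE + IFN-γ and 3.98, 6.07 and 2.66 with PE + IFN-γ. It was lower with IFN-γ than with PBS by 1.16 (SE 0.224, adjusted p 0.00162), and rose by 1.02 (SE 0.235, adjusted p 0.00148) when LE was added, while the called synthesis genes fell. It was also higher with LE than with SE by 0.87 (SE 0.232, adjusted p 0.00822), higher than with PE by 1.82 (SE 0.252, adjusted p 7.58e-06) for LE and 0.96 (SE 0.263, adjusted p 0.00901) for SE, and lower with SE and PE alone by 1.18 (SE 0.268, adjusted p 0.0152) and 1.45 (SE 0.272, adjusted p 0.00645). Its interactions were 1.68 (SE 0.387, adjusted p 0.00145) with LE and 1.33 (SE 0.401, adjusted p 0.0206) with SE. No gene of this list was called with PE added to IFN-γ (log2 fold changes of -0.80 to 0.36) or with LE alone (-0.67 to 0.15). Of all genes, 0.181% and 0% were called lower and 0.448% and 0.0242% higher in the same order. Nr1h3, the gene of LXRα, rose by 0.92 (SE 0.116, adjusted p 3.99e-06) with LE and 0.59 (SE 0.118, adjusted p 0.000882) with SE, from 9.63, 7.57 and 10.3 CPM with IFN-γ to 16.4, 16.1 and 19.0 and 12.9, 13.3 and 14.3. Apoe, a carrier of exported lipid, fell by 0.89 (SE 0.233, adjusted p 0.00384) with LE. Abca1 lost its calls without replicate 1 and without replicate 3 for SE alone (-1.01 and -1.13), for SE against PE (0.84 and 0.74) and for the interaction with SE (1.48 and 1.09), and without replicate 1 for PE alone (-1.25), and Nr1h3 lost its call with SE without replicate 2 (0.47).

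In Model B, Cyp27a1, the sterol 27-hydroxylase, fell by 1.13 (SE 0.0862, adjusted p 3.96e-10) in LE-exposed and 0.82 (SE 0.0846, adjusted p 5.28e-08) in SE-exposed cells, and Nr1h3 rose by 0.99 (SE 0.105, adjusted p 6.06e-08) and 0.64 (SE 0.107, adjusted p 3.14e-05). Apoe fell by 0.67 (SE 0.229, adjusted p 0.014) in LE-exposed cells and rose by 0.64 (SE 0.218, adjusted p 0.0193) in PE-exposed cells. Against PE + IFN-γ, Nr1h3 was higher by 1.17 (SE 0.119, adjusted p 2.37e-07) with LE and 0.84 (SE 0.121, adjusted p 4.06e-05) with SE, and Apoe lower by 1.19 (SE 0.229, adjusted p 0.000223) and 0.72 (SE 0.222, adjusted p 0.0171). The interactions with LE were 0.84 for Nr1h3 and -0.84 for Cyp27a1. Without replicate 1 and without replicate 3 the calls of Apoe were lost in LE-exposed cells (-0.65 and -0.55) and for SE against PE (-0.77 and -0.40), without replicate 1 that in PE-exposed cells (0.51), and without replicate 3 that of Nr1h3 in SE-exposed cells (0.56).

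The fold changes over all genes also varied with exon length. Spearman's rho across genes was -0.0398 for IFN-γ against PBS, 0.213, -0.0564 and -0.386 for LE, SE and PE added to IFN-γ, and 0.222, 0.166 and 0.0789 for the same peptides in Model B. It was -0.372, -0.44 and -0.452 for LE, SE and PE alone, 0.355 for LE against SE, 0.348 for LE against PE and 0.21 for SE against PE with IFN-γ, and 0.309, 0.264 and 0.239 for the interactions. The median exon length was 4839 bases for the members and 4110 to 4230 for all genes tested, and the part of this in the members' values was not tested.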

How the data were processed

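Read counts per gene were deposited by the authors as 1 table of 49568 genes for 48 libraries. Per the labels and the study's methods, they aligned single-end reads to GRCm38.p5 and counted uniquely aligned reads with featureCounts, before DESeq2 1.16.1 in R 3.4.1, so near-identical copies lose counts. Here the 24 letter-labelled libraries (16.5 to 26.9 M counts, M for mega) were fitted with edgeR 4.0.16 in R 4.3.3 (TMM, filterByExpr, quasi-likelihood F test), which gave every adjusted p. A call needed an adjusted p under 0.05 and a fold change over 1.5, the study's limits. Model A used 4 groups, Model B 6, IFN-γ against PBS 2, the peptides alone 4 and the interactions 8. Named genes were up to 4 called members per role and comparison by size, 8 members followed throughout, and up to 3 called genes of each other list. Ch25h and Abca1 were added whether called or not, and the fold change of Abca1 is not given for every comparison. The members and lists were chosen with earlier results of these data known, and some listed genes are not reported here. Same-numbered libraries deviated together (every correlation over 0.1) in 2 of 13 comparisons, IFN-γ against PBS and LE in Model A (range over all -0.262 to 0.395), from the data and not the design. Simulated counts with known changes and the same spread for every gene were run through some of the fits, and the outcome is not given here. Within the groups, no letter-labelled library was found to repeat another (24 pairs, lowest chi-square per degree of freedom 3.89). Pairs between groups were not checked. Exon lengths and gene positions came from GENCODE on GRCm38. Alternatives were RLE size factors, no filter, DESeq2 1.42.0, 1 fit of 8 groups, a replicate block, each replicate left out, no fold limit, and the HLA-labelled libraries. Figures used matplotlib 3.10.9.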

Additional observations from a re-analysis of the deposited data

Results flagged for a closer look

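For some members the effect of IFN-γ differed with the peptide present, by the interaction term of edgeR in the fit of 8 groups. This was found for 14 of 32 members with LE and 10 with SE, all lower than the separate effects added. Of all genes, 7.58% were called lower and 11.3% higher with LE, and 2.89% and 5.08% with SE. The lowest values with LE were -1.60 for Fdps, -1.50 for Scd2 and -1.23 for Mvd, and with SE -1.41 for Scd2, -1.17 for Fdps and -0.98 for Scd1. Leaving out each replicate in turn gave 14 to 15 members with LE and 8 to 11 with SE, all lower but for Insig1, called higher with LE without replicate 2. The shares of all genes with a replicate left out are not given here.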

How the results depend on the processing

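Among the 24 letter-labelled libraries, the counts of called members stayed within 1.5 times under RLE size factors, no filter, DESeq2, 1 fit of all 8 groups and the replicate block. None of the 131 called member values changed sign under these or with a replicate left out. Of all 512 member values, called or not, up to 3 changed sign under the former and 26 to 31 with a replicate left out, none of them over 0.249 in size. The pairing of same-numbered libraries held in 2 of 13 comparisons, IFN-γ against PBS and LE in Model A, and the replicate block changed no member's call in any comparison. It gave 11 members for IFN-γ against PBS, 13 for LE and 10 for SE in Model A, and 21, 20 and 13 in Model B. Leaving out each replicate gave 10 to 12, 12 to 13, 9 to 10, 20 to 22, 18 to 20 and 12 to 14 members in the same order, 12 to 13 for LE against PE with IFN-γ, 7 to 7 for SE against PE, and 0 to 1 for PE against PBS (Insig1, without replicate 2). The shares of all genes in these alternative fits are not given here. Of the 131 called member values, 9, 5 and 8 lost their call without replicate 1, 2 and 3, 2 without the filter (Ebp and Srebf1), 1 with RLE and 1 with DESeq2 (Ebp). Of 58 called values of the other lists these were 11, 4 and 11, and 1 without the filter. The members' medians were less stable. Of 64 medians under RLE size factors or with a replicate left out, 46 stayed within the spread between replicates and 18 moved beyond it.

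Without the fold limit the counts were 20 for IFN-γ, 24, 23 and 6 for LE, SE and PE in Model A, 24 for PE in Model B, 5 and 9 for SE and PE against PBS, 8 for LE against SE, 23 and 21 for LE and SE against PE, and 22 and 17 for the interactions with LE and SE. The shares of all genes without the fold limit are not given here, so these counts have no background to be read against. With both label series fitted together 1 member was called for LE + IFN-γ against IFN-γ and 0 in the other comparisons. In the HLA-labelled series alone, by its labels, 0 were called for IFN-γ against PBS, SE in Model A and B, LE against PE and the interaction with SE. There 6 were lower for LE and 2 for PE in Model A, 21 for LE and 19 for PE against PBS and 7 for LE against SE, and 4 were higher for SE against PE, 15 for LE and 9 for PE in Model B, and 16 and 14 for the interactions with LE and PE. For the fits with HLA-labelled libraries, the shares of all genes are not given here either. The IFN-γ targets go against 12 of these 24 labels, so the groups of these values are those of the labels only, and the cause was not tested.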

Other observations

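In the HLA-labelled libraries, grouped as labelled, the 18 mevalonate, squalene and sterol enzymes summed to 720 to 793 CPM with PBS, 347 to 437 with LE, 732 to 738 with SE, 405 to 484 with PE, 699 to 711 with IFN-γ, 609 to 666 with LE + IFN-γ, 688 to 744 with SE + IFN-γ and 641 to 663 with PE + IFN-γ. The mean log2(CPM + 1) of the IFN-γ targets in the same order of groups was 2.50 to 2.77, 6.59 to 6.60, 2.47 to 2.56, 6.44 to 6.58, 2.37 to 2.40, 5.77 to 5.86, 2.33 to 2.45 and 6.01 to 6.07. The groups labelled LE and PE, whose labels name no IFN-γ, had the lowest sums of these enzymes and the highest values of the targets. The 8 genes of the fatty acid arm summed to 518 to 603 CPM in the group labelled LE and 675 to 817 in that labelled PE, against 1118 to 1576 over the other 6 groups. The columns of the deposited table stand in 8 blocks of 3 letter-labelled and 3 HLA-labelled libraries. In 0 of 8 blocks were both sets labelled as the same group, while in 8 of 8 the IFN-γ targets of both were high or both were low. Column order was not used to assign libraries, and which groups the HLA-labelled libraries belong to was not settled here.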
